A study of Homo sapiens with 8 samples.

Results

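The response of cells with restored pRB to an Aurora B inhibitor was read from 4 of the 8 libraries of an RNA sequencing series, chosen by their sample labels alone. NCI-H82 is an established human cell line from small cell lung cancer, neuroendocrine tumours in which pRB, the retinoblastoma protein, is commonly lost. All 4 libraries came from cells that carry RB1 in the doxycycline-inducible vector pTripZ and that received 0.5 µg/mL doxycycline for 96 hours, so that control and treated cells were both pRB+ and both exposed to doxycycline. For the last 48 hours, 2 cultures received AZD2811 at 32 nM and 2 received its vehicle DMSO, here called control. The sample titles name the inhibitor AZD1152, a prodrug whose active form is AZD2811. The 4 libraries of pRB- cells, grown without doxycycline and given the same inhibitor or vehicle, served to set the response beside that of cells without pRB. They also entered the rescaling, the filter on low levels and the shared estimate of spread behind each test in pRB+ cells. The labels name 1 engineered line and do not say whether it is a clone. The replicates are described as biological, and the series text gives both a code name that was not matched to the replicate numbers of the samples. Whether cultures were separate is not said, so p-values reflect only how these samples vary, and that variation may be technical.

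Aurora B is the kinase of the chromosomal passenger complex, in which it works with INCENP, survivin and borealin. It corrects faulty attachments of chromosomes to the spindle, sustains the spindle assembly checkpoint and takes part in the final separation of daughter cells, and cells that lose its activity commonly leave mitosis without dividing. pRB restrains the E2F transcription factors and with them the genes of S phase and mitosis, and much of the mitotic programme is read from promoters bound by the MuvB complex, which joins pocket proteins in resting cells and B-MYB and FOXM1 in dividing ones. The study set inhibitor and vehicle side by side in cells with and without pRB.

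Expression was given as FPKM, fragments scaled to transcript length and to the mapped fragments of the library, rescaled here between libraries. Of 25337 genes in the table, 12013 had a mean of at least 1 scaled FPKM over the 8 libraries, and 11685 were tested after 328 genes for histones, small nucleolar, small nuclear and micro RNAs were set aside. RB1, the induced gene, measured 7.36 and 7.56 scaled FPKM in the control libraries (replicate 1, then 2, here and below) and 7.67 and 6.36 in the AZD2811 libraries, against 0.801 to 0.950 in the 4 pRB- libraries. Neuroendocrine markers were present in each pRB+ library, among them NEUROD1 at 74.8 to 88.3, CHGA at 64.3 to 71.7 and SYP at 66.7 to 77.8 scaled FPKM. The 16 markers of leukocytes, stroma, endothelium and other epithelium summed to 1.71 to 2.48 scaled FPKM per pRB+ library, and KRT5 and SFTPC were listed at 0 in all 4. Depth, estimated from steps of 1 fragment in low values, was 23400000 to 33800000 fragments per library.

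RNA without poly(A) tails split the pRB+ libraries across the groups. RMRP, a non-coding RNA without a poly(A) tail, measured 5792 scaled FPKM in control replicate 2 and 6473 in AZD2811 replicate 1, but 21.95 in control replicate 1 and 165 in AZD2811 replicate 2. Over the 8 libraries, RMRP measured 5792 to 14003 in 3 and 21.2 to 165 in 5. The labels give 1 total RNA protocol for all of them, a kind of library that retains such RNA, and the 5 low libraries go against it. Each pRB+ group held 1 library of the high type and 1 of the low type, crossed with the replicate numbers. AZD2811 replicate 1 minus control replicate 2 is called the high pair and AZD2811 replicate 2 minus control replicate 1 the low pair, and values within both pairs stand beside the results.

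Between AZD2811 and control in pRB+ cells, 0 of 11685 genes were called higher and 0 lower, 0% of the genes tested (limma, Benjamini-Hochberg adjusted p under 0.05). An unadjusted p under 0.05 was reached by 77 genes, where 584 would be expected by chance, and by 112 with a term for library type in the fit, which also called 0. The smallest adjusted p was 0.569, for TNFRSF6B, and 0.422 with that term. With a further term for replicate number, added after the data were seen, 206 genes reached an unadjusted p under 0.05 (limma) and 0 were called. Counts so far below 584 show that p-values ran large in these fits, so 0 calls do not show that a response is absent. Differences were small: on the scale of log2(scaled FPKM + 1), used for every log2 difference here and understating the change of low genes, 11252 genes (96.3%) differed by less than 0.2, or 1.15-fold, and the SD over genes was 0.104. The 95% interval of the difference lay within ±1 for 11603 genes (99.3%) and within ±0.5 for 10762 (92.1%), with a median of 0.256 on either side of the estimate.

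**Figure D1:**
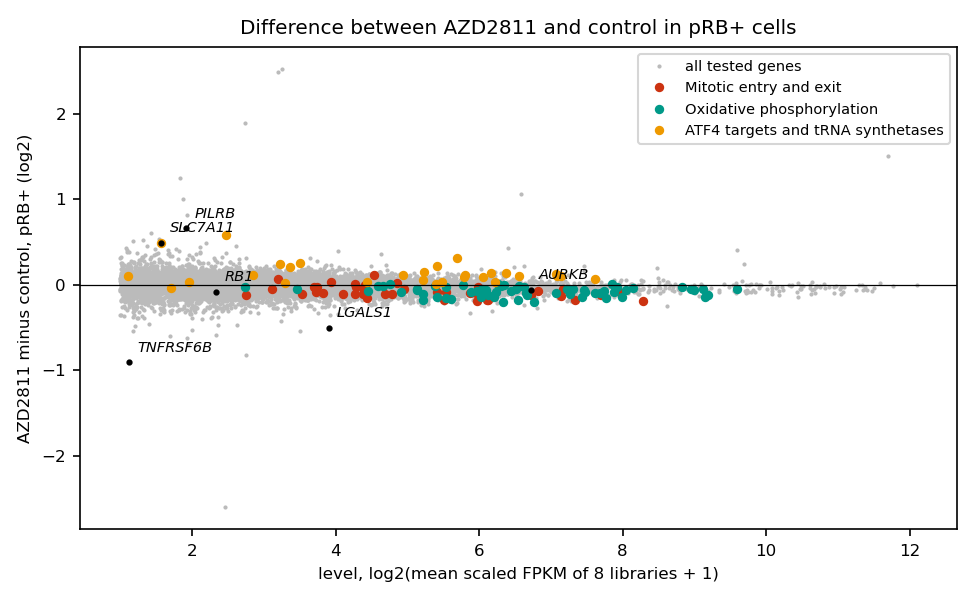
Difference between AZD2811 and control in pRB+ cells (log2, vertical) against level (log2 of the mean scaled FPKM of 8 libraries plus 1, horizontal) for the 11685 tested genes, with 3 gene lists in colour and 6 genes named in black. Nearly all points lie close to 0, and TNFRSF6B stands at -0.90.

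The spread between libraries had other directions. Over all tested genes the SD of the log2 difference was 0.104 along the inhibitor, 0.186 along library type and 0.191 along replicate number. The differences of the high and the low pair went in opposite directions (Pearson r = -0.554 and Spearman rho = -0.529 across the 11685 genes, which are not independent replicates). Their sign was shared by 3600 genes (30.8%). The high pair minus the low pair is the same contrast as replicate number, so a response differing by library type cannot be told apart from it. With a larger spread along replicate number than along the inhibitor, a negative r follows. The AZD2811 libraries did not overlap the control libraries for 842 genes on the higher side (7.21%) and 1175 on the lower side (10.1%), together 17.3% of the genes. With 2 libraries against 2, an exact two-sided permutation test of a single gene cannot go below 0.333. The same 0.333 is the share of genes expected not to overlap, on either side, if the 4 libraries were exchangeable.

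**Figure D2:**
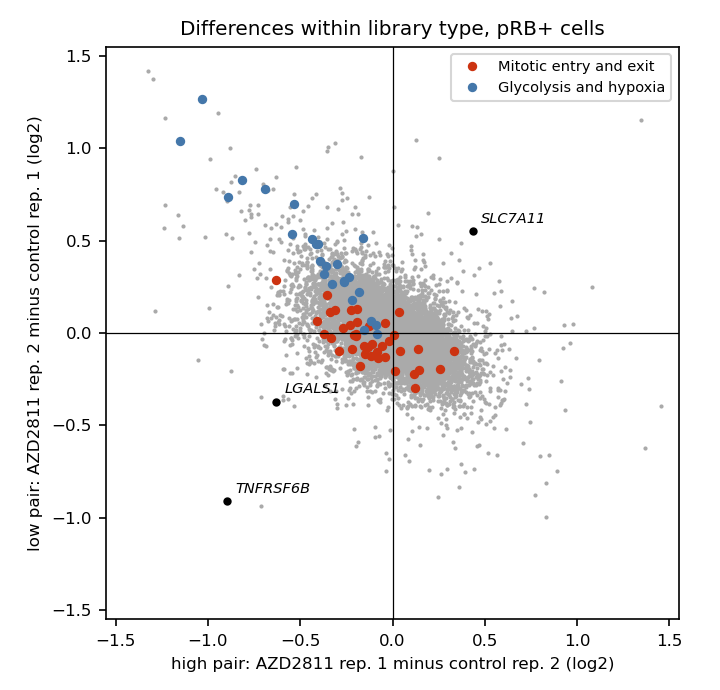
Log2 difference of each tested gene within the high pair (AZD2811 replicate 1 minus control replicate 2, horizontal) and within the low pair (AZD2811 replicate 2 minus control replicate 1, vertical), with 23 genes beyond ±1.5 not drawn. Glycolysis and hypoxia genes (blue) run from the upper left to the centre, and mitotic genes (red) lie mostly left of 0. TNFRSF6B, LGALS1 and SLC7A11 keep their sign in both pairs, as genes whose groups do not overlap must.

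The genes ranked first by p among those whose groups did not overlap are given as values, since none passed the test. Groups without overlap must have the same sign in both pairs, so a shared sign among these genes follows from their selection. TNFRSF6B encodes DcR3, a secreted decoy receptor that binds FAS ligand and its relatives. It measured 1.79 and 1.86 scaled FPKM in control and 0.539 and 0.483 in AZD2811 libraries. The AZD2811 libraries lay well below both controls and close to each other, with a log2 difference of -0.90 ± 0.13 (SE, n = 2 in each group; adjusted p = 0.569 by limma), and of -0.90 and -0.91 within the high and the low pair. RefSeq annotates a readthrough transcript of TNFRSF6B with its neighbour RTEL1, a DNA helicase, and the authors' estimation could split reads between them; RTEL1 measured 4.47 and 4.17 in control and 3.92 and 2.71 in AZD2811 libraries.

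Among the other lower-ranked genes, LGALS1, which encodes the sugar-binding protein galectin-1, measured 10.9 and 15.7 scaled FPKM in control and 9.81 and 8.18 in AZD2811 libraries, a log2 difference of -0.50 ± 0.16 (SE; limma, adjusted p = 1). The highest AZD2811 value lay just below the lowest control value. GEMIN2, a subunit of the SMN complex that assembles spliceosomal ribonucleoproteins, measured 15.5 and 15.95 against 12.8 and 11.6, a difference of -0.34 ± 0.09. TRIM21, a ubiquitin ligase that recognises antibodies inside cells, measured 3.22 and 3.80 against 2.60 and 2.58, a difference of -0.33 ± 0.11. For both, the groups stood apart by more than the spread within them, but neither passed the test (limma, adjusted p = 1). ANG, the secreted ribonuclease angiogenin, measured 1.00 and 1.74 against 0.499 and 0.732. The other genes of the lower set were ZHX1-C8orf76, DGUOK-AS1, TMEM256-PLSCR3, C5orf63, ACPP, DNAJC17 and SYPL1, with log2 differences from -0.82 for TMEM256-PLSCR3 to -0.26 for SYPL1.

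TMEM256-PLSCR3 is a readthrough of 2 neighbouring genes, and its values ran against those of PLSCR3, named after its values were seen. TMEM256-PLSCR3 measured 7.39 and 7.14 scaled FPKM in control and 3.96 and 3.38 in AZD2811 libraries. PLSCR3, a phospholipid scramblase gene whose exons the readthrough contains, measured 1.19 and 1.08 in control and 4.29 and 3.87 in AZD2811 libraries. In both AZD2811 libraries PLSCR3 lay above and the readthrough below its control values (limma, adjusted p = 1 for each), and how the authors' estimation divided their shared reads was not tested.

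On the higher side the leading genes were PILRB, SLC7A11, ZBED5-AS1 and ASB7. SLC7A11, the cystine transporter that supplies cysteine for glutathione, measured 1.91 and 1.51 scaled FPKM in control and 2.39 and 3.28 in AZD2811 libraries. The groups did not overlap, and the log2 difference was 0.49 ± 0.14 (SE; limma, adjusted p = 1), with 0.43 in the high and 0.55 in the low pair. PILRB, an immunoglobulin-like receptor whose exons a longer annotated transcript shares, measured 1.98 and 1.31 against 3.88 and 2.54, a difference of 0.66 ± 0.18. ASB7, a substrate adaptor of a ubiquitin ligase, measured 2.54 and 2.77 against 3.91 and 3.48, a difference of 0.36 ± 0.11. For each of these the lower AZD2811 value exceeded the higher control value, and the adjusted p was 1. The rest of the higher set comprised LINC00659, CLPSL2, MSANTD2, GNGT2, RTN4RL2, RSPH1, LINC00592 and DNAL4, with differences from 0.26 for RTN4RL2 to 0.52 for CLPSL2. RSPH1 and DNAL4 encode an axonemal radial spoke protein and a dynein light chain. Several of these genes measured near 1 scaled FPKM. At 1 FPKM as deposited, in a transcript of 1500 nucleotides, the counting error was 14.7% to 16.9% in the pRB+ libraries. Their scaling factors were 0.746 to 1.327, so at 1 scaled FPKM the error departs from this range by library.

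The target of the inhibitor and its partners came next. AURKB, which encodes Aurora B, measured 86.9 and 94.1 scaled FPKM in control and 82.7 and 91.0 in AZD2811 libraries. The groups overlapped, and the log2 difference was -0.06 ± 0.11 (SE, n = 2 per group; 95% interval -0.30 to 0.18; limma, adjusted p = 1). AZD2811 acts on the kinase, and its activity was not measured here, so the AURKB level is no check of the treatment. AURKA, the kinase of the spindle poles, measured 34.8 and 35.8 against 32.8 and 33.0, with a difference of -0.10 ± 0.08. The scaffold INCENP measured 17.8 and 18.9 against 18.3 and 17.5, and survivin (BIRC5) 50.04 and 48.4 against 41.2 and 49.6, both with overlapping groups. Borealin (CDCA8) measured 37.1 and 38.7 in control and 34.9 and 34.1 in AZD2811 libraries, without overlap, a difference of -0.13 ± 0.08. The shugoshins, which protect centromeric cohesion, were alike: SGOL1 measured 4.98 and 5.34 against 4.32 and 4.55, and SGOL2 8.34 and 8.84 against 7.84 and 7.22.

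Of the 14 tested genes for Aurora kinases and the passenger complex, 0 passed in either direction. Negative values were found for 12 (85.7%), against 52.7% of all tested genes, and the median log2 difference was -0.10, against -0.0048 for all tested genes. The groups did not overlap for 6 (42.9%), each lower under AZD2811, against 10.1% of all tested genes on that side. The largest difference in the list was -0.18, for SGOL1, and the 95% interval of all 14 lay within ±0.5. AURKC, the germline Aurora kinase, was below the level filter, at 0.0635 to 0.414 scaled FPKM in the pRB+ libraries. Control replicate 2 was the highest pRB+ library for 10 of the 14, AZD2811 replicate 1 the lowest for 6 and AZD2811 replicate 2 the lowest for 5.

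**Figure D3:**
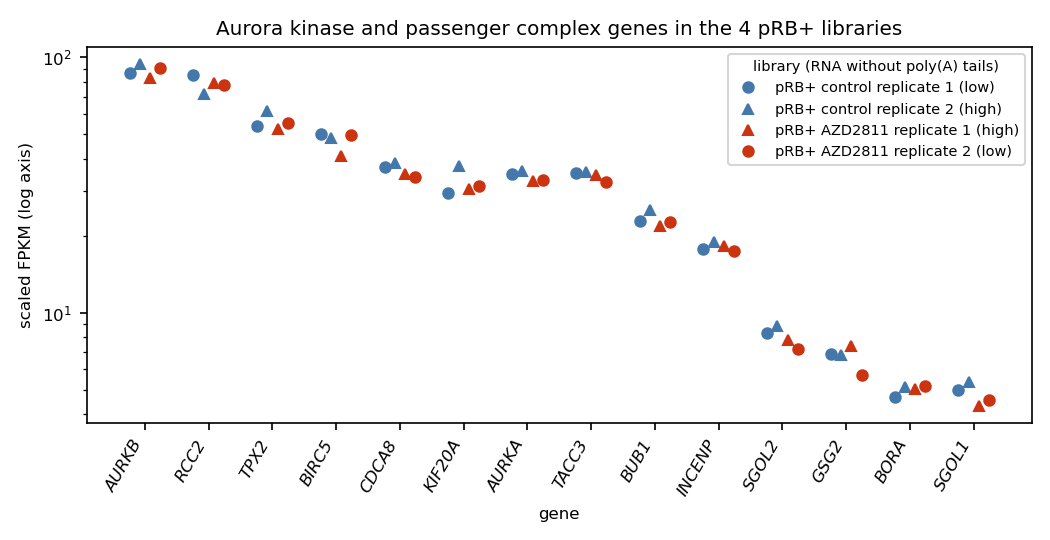
Scaled FPKM (log axis) of the 14 tested genes for Aurora kinases and the passenger complex in the 4 pRB+ libraries, with control in blue, AZD2811 in red, and triangles for the libraries high in RNA without poly(A) tails. The libraries of each gene lie close together, and the red points of CDCA8, AURKA, BUB1, SGOL1, SGOL2 and TACC3 lie below both blue ones.

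Most mitotic genes had small negative values. PLK1, the kinase that drives entry into and passage through mitosis, measured 61.7 and 64.2 scaled FPKM in control and 56.6 and 54.3 in AZD2811 libraries. The groups did not overlap, and the log2 difference was -0.18 ± 0.09 (SE; limma, adjusted p = 1), with -0.18 in each pair. CDC20, the activator of the anaphase-promoting complex, measured 123 and 125 against 113 and 114, a difference of -0.13 ± 0.11. CDK1, the mitotic cyclin-dependent kinase, measured 59.1 and 59.9 against 47.3 and 57.9, a difference of -0.18 ± 0.11 that came mostly from AZD2811 replicate 1. TROAP and DLGAP5, spindle-associated proteins, stood at -0.19 ± 0.11 and -0.15 ± 0.09, and SPC25, an outer kinetochore subunit, at -0.19 ± 0.10. The cyclins B1 and B2 overlapped between the groups: CCNB1 measured 53.8 and 58.2 against 54.9 and 50.02, and CCNB2 52.0 and 58.1 against 50.7 and 54.3. FOXM1, the transcription factor of the mitotic programme, measured 26.2 and 24.5 against 27.0 and 24.6, and the proliferation marker MKI67 14.0 and 17.8 against 17.3 and 14.6. For neither did the groups separate.

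Of 40 genes of mitotic entry and exit 0 passed the test, 34 (85.0%) had negative values, and the median log2 difference was -0.09. The groups did not overlap for 15 on the lower side and for 1, the kinesin KIF15, on the higher side, against 10.1% and 7.21% of all tested genes. Control replicate 2 was the highest pRB+ library for 27 of the 40, and AZD2811 replicate 1 and replicate 2 the lowest for 18 and 14. The median was -0.14 in the high pair and -0.05 in the low pair, with 30 and 27 negative values. Of 22 spindle checkpoint genes 0 passed, 17 (77.3%) had negative values and the median was -0.07. The groups did not overlap for 7 (31.8%), all lower, against 10.1% of all tested genes on that side. The lists share members, among them PLK1, CDC20 and BUB1. The signs of the medians of the passenger complex, checkpoint and mitotic lists were negative in every alternative and whichever library was left out, the mitotic one ranging from -0.14 to -0.04. The smallest unadjusted p in the mitotic and checkpoint lists was that of PLK1.

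Many promoters of these genes hold the CHR, the cell cycle genes homology region through which LIN54 brings the MuvB complex to mitotic genes. TTTGAA, or its reverse complement TTCAAA, was searched on both strands from 250 bases before to 50 after the RefSeq start, on GRCh38.p14. It was found for 20 of the 34 mitotic genes with an entry (58.8%), 11 of 18 checkpoint genes (61.1%) and 1 of 44 genes of G1/S and replication (2.3%), against 848 of 9331 tested genes with an entry (9.1%) and 15.2% of all 35116 promoters in the table. The mitotic genes with and without it had median log2 differences of -0.09 and -0.09. The checkpoint genes with it had a median of -0.07, with 10 of 11 negative, against -0.03 without it, and the passenger complex genes -0.04 for the 3 of 10 with it against -0.10 without it. The promoters of 3 genes named here, 120 bases up to the start with the motif in capitals, were chosen because it lies close to the start in them; a match is a description of the sequence and not a measured site.
PLK1 (Polo-like kinase, chr16:23678769-23678888, + strand): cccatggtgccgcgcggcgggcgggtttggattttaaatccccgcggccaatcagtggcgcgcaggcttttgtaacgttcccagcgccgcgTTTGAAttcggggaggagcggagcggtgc
CDCA8 (borealin, chr1:37692396-37692515, + strand): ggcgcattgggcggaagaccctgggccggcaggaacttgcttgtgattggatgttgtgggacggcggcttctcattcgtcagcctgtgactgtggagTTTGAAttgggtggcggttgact
CCNB2 (cyclin B2, chr15:59105026-59105145, + strand): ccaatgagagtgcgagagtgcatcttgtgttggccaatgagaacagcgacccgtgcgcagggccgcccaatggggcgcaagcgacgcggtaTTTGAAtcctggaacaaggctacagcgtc
In these promoters the motif began 29, 23 and 29 bases before the start, in the order printed. It lay farther out in the same stretch for CDC20, DLGAP5 and CEP55, from positions -65, -109 and -116. These letters were not found in that stretch for AURKB, SGOL2, CCNB1 or CDK1. In the whole window searched, CDK1 had 1 match and AURKB, SGOL2 and CCNB1 had 0.

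The genes of final cell separation, the step that loss of Aurora B activity disturbs, stayed close to the background. Of 21 cytokinesis and central spindle genes 0 passed, 12 had negative values and the median log2 difference was -0.0045. ECT2, which activates RhoA at the division plane, measured 36.7 and 37.3 against 34.97 and 34.4 scaled FPKM, and CEP55, which recruits the abscission machinery, 12.9 and 14.7 against 11.6 and 12.5. VPS4A, an ATPase of that machinery, measured 21.3 and 21.5 against 23.1 and 22.5. These were the 3 of 21 without overlap (14.3%, against 17.3% of all tested genes), each apart by a small step, with differences of -0.09 ± 0.08, -0.17 ± 0.09 and 0.09 ± 0.08.

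Upstream of the mitotic genes, the 19 pocket protein, E2F and MuvB genes had a median of 0.0027, with 11 positive and 8 negative values and 0 passing. E2F1 measured 27.9 and 24.4 scaled FPKM in control and 27.2 and 26.8 in AZD2811 libraries. LIN54 and LIN37, subunits of MuvB, stood at 0.15 ± 0.12 and -0.08 ± 0.10, and induced RB1 at -0.08 ± 0.11. Of 53 genes of G1/S and replication 0 passed, 36 had negative values and the median was -0.02, with 5 lower and 1 higher without overlap (11.3%, against 17.3% of all tested genes). ORC6, of the origin recognition complex, measured 31.5 and 29.8 against 27.8 and 27.9. POLA2, of DNA polymerase alpha, and RFC4, of the clamp loader, stood at -0.13 ± 0.08 and -0.12 ± 0.09.

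**Figure D4:**
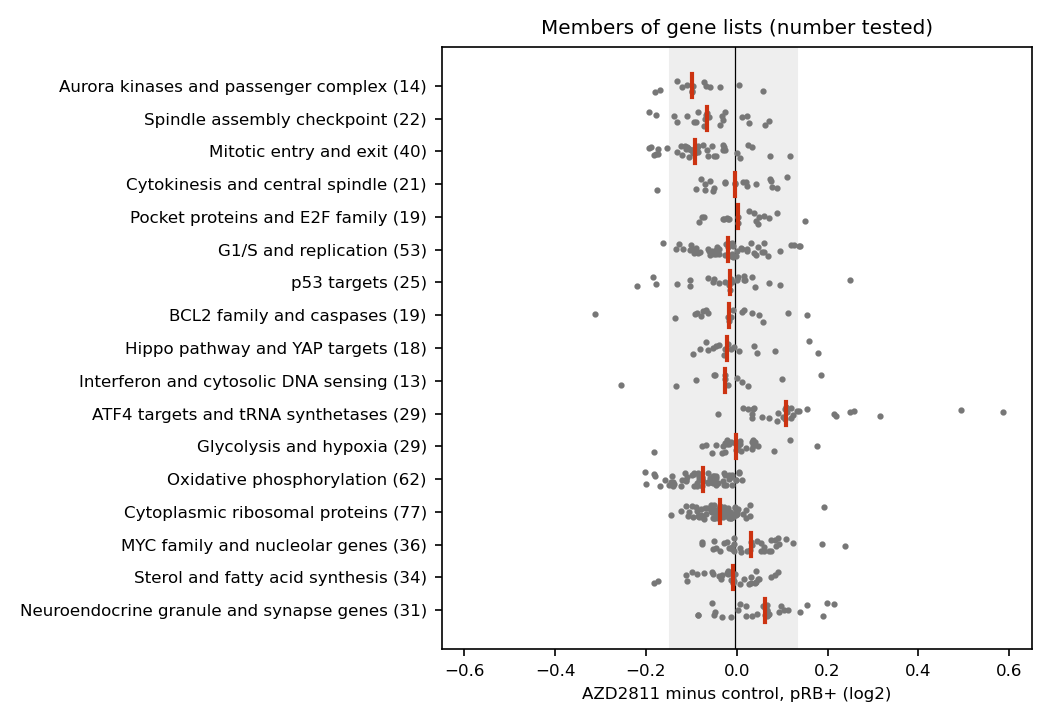
Log2 difference between AZD2811 and control in pRB+ cells for each tested member (grey points) of 17 gene lists, with the median of each list in red and the number tested in brackets. The grey band spans the 5th to the 95th percentile of all tested genes, and most members of every list lie inside it.

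Genes commonly followed after failed mitosis gave values of the same small size, with 0 members past the test. Of 25 tested p53 targets, 15 had negative values and the median was -0.01. PHLDA3, a p53 target that restrains AKT, measured 0.762 and 0.999 scaled FPKM against 0.734 and 0.573, and SESN2, a stress-induced inhibitor of mTORC1, 5.81 and 7.30 against 5.80 and 10.7. SESN2 was high in AZD2811 replicate 2 alone. Of 7 CDK inhibitor genes 6 had negative values, with CDKN3 at -0.24 ± 0.14 and CDKN1B, which encodes p27, at 0.08 ± 0.11. Of 25 genes of the DNA damage response 16 had negative values and the median was -0.01; CHEK1, the replication checkpoint kinase, measured 14.4 and 14.1 against 12.6 and 14.0, and RAD51AP1, a recombination factor, 13.3 and 11.4 against 14.5 and 13.3. Of 19 BCL2 family and caspase genes 12 had negative values; BCL2L11, which encodes the death-promoting BIM, stood at -0.31 ± 0.22 and CASP6 at 0.11 ± 0.10.

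Immune and tetraploidy-linked genes likewise had 0 members past the test. Of 27 genes of interferon and cytosolic DNA sensing, 14 were below the level filter, and of the 13 tested 9 had negative values, with a median of -0.03. Those below it included MB21D1 (cGAS), at 0.0360 to 0.0879 scaled FPKM in the pRB+ libraries, and TMEM173 (STING), at 0.226 to 0.437. MX1 and OAS2 were listed at 0 in all 4, and a response of these genes could not be read. IFITM3, an antiviral membrane protein, measured 5.49 and 6.52 scaled FPKM against 6.89 and 7.01, and TBK1, the kinase that relays cytosolic DNA signals, 9.31 and 9.47 against 8.78 and 8.75. Of 22 Hippo pathway genes and YAP targets, 4 were below the filter, among them CTGF and ANKRD1, which reached at most 0.0569 and 0.0974. Of the 18 tested, 12 had negative values, the median was -0.02 and NF2, an upstream activator of the pathway, stood at 0.18 ± 0.14. Of 24 genes for NF-kB and secreted senescence factors, 16 were below the filter.

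Several larger patterns followed the replicate number or single libraries instead of the groups. Glycolysis and hypoxia genes had a median difference of -0.00073, which averaged a median of -0.39 in the high pair, with 29 of 29 negative, and of 0.48 in the low pair, with 28 of 29 positive. HK2, a hexokinase, measured 16.2 and 32.9 scaled FPKM in control and 15.6 and 40.5 in AZD2811 libraries. ALDOC, an aldolase induced by hypoxia, measured 5.98 and 39.5 against 5.32 and 41.9. Both replicates numbered 2 were high and both numbered 1 low, whatever the treatment. Over all 8 libraries, the median of the list relative to each gene's mean was -0.23 to -0.06 in the 4 libraries numbered 1 and 0.06 to 0.32 in the 4 numbered 2. Cytoplasmic ribosomal protein genes had a median of -0.04, with -0.32 in the high and 0.25 in the low pair; AZD2811 replicate 1 was the lowest pRB+ library for 75 of 77 and AZD2811 replicate 2 the highest for 66.

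ATF4 targets and tRNA synthetases, the amino acid response, had positive values for 28 of 29 genes (96.6%, against 47.3% of all tested genes) and a median log2 difference of 0.11, with 0 passing. Here too 1 of the pRB+ libraries led: AZD2811 replicate 2 was the highest pRB+ library for 26 of the 29. ASNS, asparagine synthetase, measured 39.96 and 41.0 scaled FPKM in control and 31.9 and 80.1 in AZD2811 libraries. CHAC1, which degrades glutathione, measured 4.58 and 3.45 against 3.86 and 10.5. DDIT4, an inhibitor of mTORC1, measured 14.6 and 66.5 against 14.4 and 83.5 and followed the replicate number. The groups overlapped for 26 of the 29 genes, and the 3 without overlap (10.3%), all higher, stand against 7.21% of all tested genes on that side and 17.3% on either. Without AZD2811 replicate 2 the median was -0.06 with 11 of 29 positive, and without AZD2811 replicate 1 it was 0.28. CTH, which makes cysteine, SLC7A11 and the amino acid transporter gene SLC38A2 did not overlap; CTH measured 9.54 and 8.51 against 9.70 and 11.6. Relative to each gene's mean over 8 libraries, the median of the list was 0.20 in pRB+ and 0.18 in pRB- AZD2811 replicate 2. In the other libraries it was -0.13 to 0.05. The part of either AZD2811 replicate 2 library in the pattern beyond these values was not tested.

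Nuclear-encoded subunits of oxidative phosphorylation had negative values for 59 of 62 genes (95.2%, against 52.7% of all tested genes), a median of -0.08 and 16 genes without overlap, all lower (25.8%, against 10.1%). NDUFB3, a subunit of complex I, measured 87.6 and 86.6 scaled FPKM in control and 73.6 and 77.7 in AZD2811 libraries, a difference of -0.20 ± 0.08 (SE; limma, adjusted p = 1). COX6C, of cytochrome oxidase, measured 110 and 110 against 91.8 and 99.3, and NDUFV2, of complex I, 50.2 and 44.6 against 42.0 and 42.0. AZD2811 replicate 1 was the lowest pRB+ library for 53 of the 62, the median was -0.14 in the high and -0.0090 in the low pair, and without that library it was 0.0036.

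**Figure D5:**
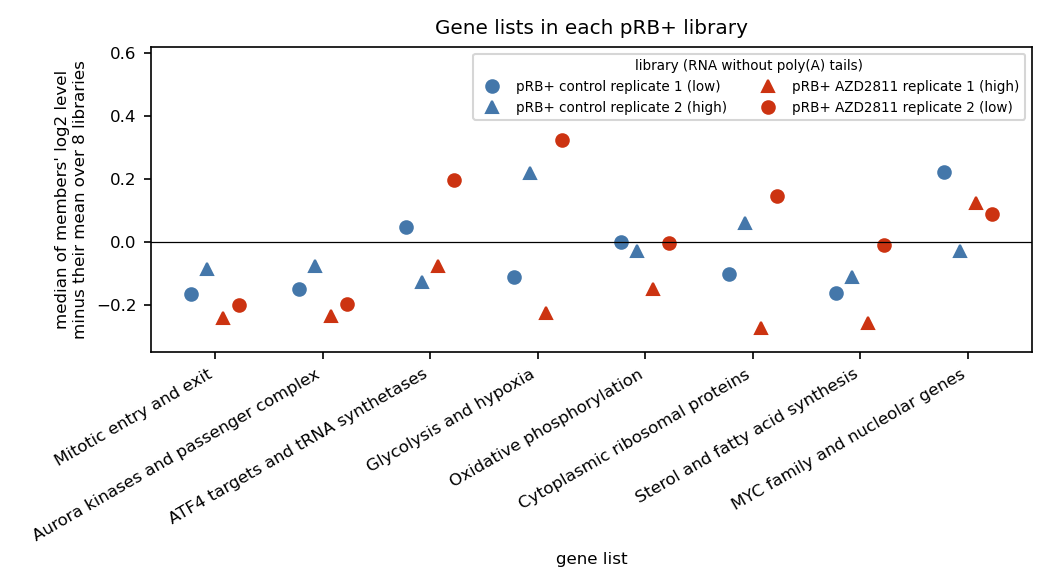
Median over the members of 8 gene lists of the log2 level minus the gene's mean over 8 libraries, in each pRB+ library (control blue, AZD2811 red, triangles for libraries high in RNA without poly(A) tails). Both AZD2811 libraries lie below both controls for the mitotic and passenger complex lists, while the other 6 lists are ordered otherwise, with AZD2811 replicate 2 highest for ATF4 targets and for glycolysis and hypoxia.

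Neuroendocrine genes were measured at similar levels in both groups. Of 31 genes of secretory granules and synapses 0 passed, 24 had positive values and the median was 0.06; without AZD2811 replicate 2 it was -0.03. PCSK2, a prohormone convertase, measured 3.59 and 3.26 scaled FPKM against 3.82 and 4.46, its relative PCSK1 0.757 and 0.754 against 0.895 and 1.14, and chromogranin A (CHGA) 66.4 and 64.3 against 71.7 and 69.8. These are 3 of the 5 genes in the list without overlap (16.1% of the 31, all higher, against 7.21% of all tested genes on that side and 17.3% on either). The 23 tested neuroendocrine transcription factor genes had a median of -0.0041, and HES1, a Notch target that opposes neuroendocrine fate, measured 1.36 and 2.198 against 1.24 and 1.35. MYC, amplified in this line, measured 421 and 348 against 380 and 428. H3F3A, which encodes histone H3.3, was listed near 0 in 3 pRB+ libraries, at 0.0029, 0.0046 and 0.0058, and at 12.8 in AZD2811 replicate 2, while its partner gene H3F3B measured 114 to 136 in all 4.

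The response of pRB- cells to the same dose was used for comparison. There too 0 genes were called (0%), with 330 at an unadjusted p under 0.05, and the groups did not overlap for 3548 genes (30.4%); the pRB- groups hold unequal numbers of the high library type. The mitotic list had a median of -0.12 in pRB- cells, with 32 of 40 negative, and the passenger complex list of -0.08, with 11 of 14. Oxidative phosphorylation genes had a median of -0.13 there, with 59 of 62 negative. For cytoplasmic ribosomal protein genes it was -0.095, with 75 of 77 negative. With a term for library type these 2 medians were -0.070 and -0.0054. The difference between the responses, tested as an interaction, was past the threshold for 0 genes (0%), with 64 at an unadjusted p under 0.05, and its median was 0.03 over the mitotic and -0.0073 over the passenger complex list. The responses of all tested genes correlated with r = 0.286 across genes, between groups that share no library. Within the low library type r was 0.0555. There the pRB+ response was AZD2811 replicate 2 minus control replicate 1, and the pRB- response AZD2811 replicate 2 minus the mean of its controls. That pRB+ pair also differs in replicate number and rests on fewer libraries, so the lower r cannot be assigned to library type.

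TNFRSF6B had the smallest adjusted p of the interaction (limma, adjusted p = 0.206). In pRB- cells it measured 0.765 and 0.759 scaled FPKM in control and 1.86 and 1.31 in AZD2811 libraries, a log2 difference of 0.54, against -0.90 in pRB+ cells. Both AZD2811 libraries lay below both controls in pRB+ and above both in pRB- cells, and the difference of the responses was -1.45 ± 0.18 (SE, n = 2 in each group). It passed when pRB- AZD2811 replicate 2 was left out (limma, adjusted p = 0.0407), a fit in which the lone library of that group is assumed to vary like the others, and with none of the other 7 left out. The smallest adjusted p of the interaction over all genes was 1 (limma) when either of the pRB- controls was dropped, and also when the second pRB+ control was. Other genes with small p in the interaction included SNAR-G1, LINC00476, DGUOK-AS1 and ANG on the lower side and MAP1LC3B2, TRAF3IP2-AS1, LINC00659 and GNGT2 on the higher side, none of which passed the test.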

How the data were processed

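Each of 4 groups had 2 libraries, made from 500 ng RNA with a stranded total RNA protocol after plating at 100000 cells per mL, per the labels' protocols; 5 of the 8 had little RNA without poly(A) tails, against that description. The authors deposited a table of FPKM per gene for the 8 libraries, without counts. The submitters' processing notes list STAR 2.5.1b, Cufflinks 2.2.1 and hg19; the gene annotation is not given in the sources used here. Of 25365 rows, 28 with date-like names were dropped. Libraries were rescaled with trimmed-mean factors of 0.455 to 1.327 relative to a geometric mean library, trimming 30% of log ratios and 5% of levels at both ends. Genes with a mean of at least 1 were tested with limma 3.58.1 in R 4.3.3 on log2(scaled FPKM + 1), with 4 group means over all 8 libraries (4 residual degrees of freedom), an intensity trend and Benjamini-Hochberg adjustment over 11685 genes; fits were also run on simulated data with known changes. Genes of the prefixes HIST, SNORD, SNORA, SCARNA, RNU and MIR were set aside. Library type was set by RMRP above 1000 scaled FPKM and was defined from the data.

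Depth was estimated from steps of 1 fragment in single-transcript genes of GENCODE, and intervals and counting errors cover counting and the spread of these libraries only. The members and gene lists were chosen with earlier results of these data known, and lists are described by counts and medians with no test. Besides RB1 and AURKB, named genes were the 12 of smallest p in each direction with groups that did not overlap, 5 in each direction of the interaction, and list members of smallest p. The rule also asked for the same sign in both library types, which groups without overlap always have. Further list members and PLSCR3 were added after their values were seen. Not every gene that meets the rule is reported here. Promoters came from RefSeq on GRCh38.p14, matched by symbol or an unambiguous older symbol. Alternatives were median-ratio or no scaling, other filters and pseudocounts, small RNA genes kept, only the groups compared, library type and replicate terms, a robust spread, a fold threshold and each library left out. Figures used Python 3.11.15 and matplotlib 3.10.9.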

Additional observations from a re-analysis of the deposited data

How the results depend on the processing

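With 2 libraries a group, the 95% interval of a gene's log2 difference reached a median of 0.256 to either side before adjustment. After it, larger differences went uncalled too: 26 genes differed by over 0.5 and 8 by over 1. In pRB+ cells the count of 0 called genes became 3 with FPKM as deposited (SNAR-C3 and SNAR-C4 higher, SNAR-G2 lower), 1 with no filter on low values (NEDD8-MDP1, lower), 1 with small RNA and histone genes kept (SNORD67, lower), 1 with only the groups compared (PLSCR3, higher) and, in a setting added after the data were seen, 1 with crossed pairing of the pRB+ libraries (PLSCR3, higher). It ranged from 0 to 1 when each library was left out, with SNAR-G2 without pRB+ control replicate 1 and H3F3A without pRB+ AZD2811 replicate 1, at an adjusted p of 0.0041. In pRB- cells the count became 4 with FPKM as deposited and 4 with small RNA genes kept, and ranged from 0 to 1 with libraries left out. For the interaction it became 3 with FPKM as deposited and 2 with small RNA genes kept, and ranged from 0 to 2, the 2 being TNFRSF6B and SNAR-E without pRB- AZD2811 replicate 2. The causes were not tested, and the remaining settings gave 0. With the replicate block the counts were 0, 0 and 0, and 118 genes in pRB+ cells had an unadjusted p under 0.05 (limma). Replicate deviations correlated with r = 0.0244 in pRB+ and 0.229 in pRB- cells. In pRB+ cells library type is crossed with replicate number, and similar spreads along both (SD 0.186 and 0.191) alone give a small r. That r therefore cannot show whether libraries of the same number share anything. Glycolysis and hypoxia genes were higher in the libraries numbered 2 of all 4 groups. The labels do not say what a number shares, so the libraries were not treated as pairs. Unscaled FPKM moved the median of all genes to -0.05 and reversed FOXM1 (-0.021) and MKI67 (-0.037). Leaving out 1 library at a time reversed the sign of genes with log2 ranges of -0.20 to 0.034 for RB1, -0.13 to 0.0099 for AURKB, -0.076 to 0.0043 for INCENP, -0.25 to 0.012 for BIRC5, -0.14 to 0.011 for CCNB2, -0.037 to 0.088 for FOXM1, -0.15 to 0.17 for MKI67, -0.046 to 0.14 for E2F1, -0.14 to 0.64 for SESN2, -0.063 to 0.21 for MYC, -0.33 to 0.97 for ASNS, -0.037 to 1.22 for CHAC1, -1.07 to 1.38 for DDIT4, -0.54 to 0.78 for HK2, -1.41 to 1.35 for ALDOC, -1.12 to 0.47 for SNAR-G1 and -0.15 to 0.031 for LINC00476. TNFRSF6B stayed between -1.66 and -0.86, SLC7A11 between 0.32 and 0.69 and PLK1 between -0.23 and -0.15 in every setting that kept them. Count models were not run, since they need counts.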
